A study of Mus musculus with 33 samples.

Results

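The comparison described here is between the lungs of mice killed 3 days after a single dose of carbon black and the lungs of mice that received the vehicle alone. It covers every mouse miRNA on the array: 611 of the 650 miRNAs with non-control spots carry a mouse name, and the other 39 are viral. All mice were female C57BL/6, a common inbred strain. The treated mice received 0.162 mg of Printex 90, a nanoparticle carbon black, by instillation into the trachea. The control mice were instilled with the vehicle, salt water that held acellular bronchoalveolar lavage fluid, so both groups were instilled and both received lavage fluid. The labels gave 4 carbon black and 6 vehicle arrays at day 3, out of 33 arrays in all, the others being from days 1 and 28. Each array held labelled total RNA, enriched in small RNA, from whole lung, so the cell type behind a signal was not measured.

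A miRNA is a short RNA that guides the Argonaute protein to messenger RNAs, mainly through its seed, bases 2 to 8 counted from the 5′ end, and lowers their stability or translation. miRNAs that share a seed share many predicted targets and form a family. Several are close to specific for a cell lineage, so that in a whole organ their level follows the mixture of cells as well as regulation inside them. In the lung, inhaled or instilled particles draw in neutrophils and macrophages, and miR-21, miR-146 and miR-155 are miRNAs known to be induced in such inflammation.

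The mature sequences below are shown for reference, for some of the miRNAs and seed families named in the day 3 results. They are those of RefSeq for GRCm38.p6, written 5′ to 3′ with the seed in capitals.
miR-144: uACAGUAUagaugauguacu
miR-451: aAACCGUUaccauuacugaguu
miR-133b: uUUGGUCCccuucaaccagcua
miR-21: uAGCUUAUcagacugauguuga
miR-146a: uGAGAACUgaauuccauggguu
miR-146b: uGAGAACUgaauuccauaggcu
miR-223: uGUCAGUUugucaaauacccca
miR-222: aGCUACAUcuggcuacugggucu
miR-93: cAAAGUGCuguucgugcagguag
let-7b: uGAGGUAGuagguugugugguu
let-7c: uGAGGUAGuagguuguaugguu
let-7e: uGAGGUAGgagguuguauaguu
miR-322: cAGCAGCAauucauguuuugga
miR-542-3p: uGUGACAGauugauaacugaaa
miR-34b-5p: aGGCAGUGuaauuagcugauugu
miR-449a: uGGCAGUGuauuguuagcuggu
The let-7 members share the seed GAGGUAG, miR-146a and miR-146b share GAGAACU, and miR-34b-5p and miR-449a share GGCAGUG. miR-144 (chr11:78073047-78073066, plus strand) and miR-451 (chr11:78073186-78073207, plus strand) start 139 bases apart. miR-322 (chr X, minus strand, positions 53054306 to 53054327) and miR-542-3p (53049415 to 53049436) start 4891 bases apart.

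Of the 611 mouse miRNAs, 115 were above background on all 10 day 3 arrays, 72 on some of them and 424 on none. Carbon black arrays had 144 ± 15.7 (SD, n = 4) miRNAs above background and vehicle arrays 150 ± 15.1 (SD, n = 6), a difference of -5.42 (exact two-sided permutation p = 0.614 over 210 splits). Array brightness, the 75th percentile of the signal before scaling, averaged 9.27 ± 0.27 (SD, n = 4) and 9.35 ± 0.66 (SD, n = 6) on the log2 scale (exact permutation p = 0.848). No miRNA was above background on all arrays of one group and on none of the other. On each slide the vehicle arrays held the first positions and the carbon black arrays the later ones, and the effects of position and of exposure cannot be told apart.

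Both day 3 arrays of slide 1 stood apart from the rest of their groups. Vehicle replicate 2 was the highest or the lowest of the 6 vehicle arrays in 76.6% of the 171 miRNAs tested, and carbon black replicate 4 was so among its 4 arrays in 80.1%. In the other arrays this share ran from 13.5% to 48.5%. The median distance from the group median was 0.46 for vehicle replicate 2 and 0.31 for carbon black replicate 4 on the log2 scale, and 0.096 to 0.13 for the other arrays. The main results are therefore also given without slide 1. Its part in them was not tested beyond those values.

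**Figure D1:**
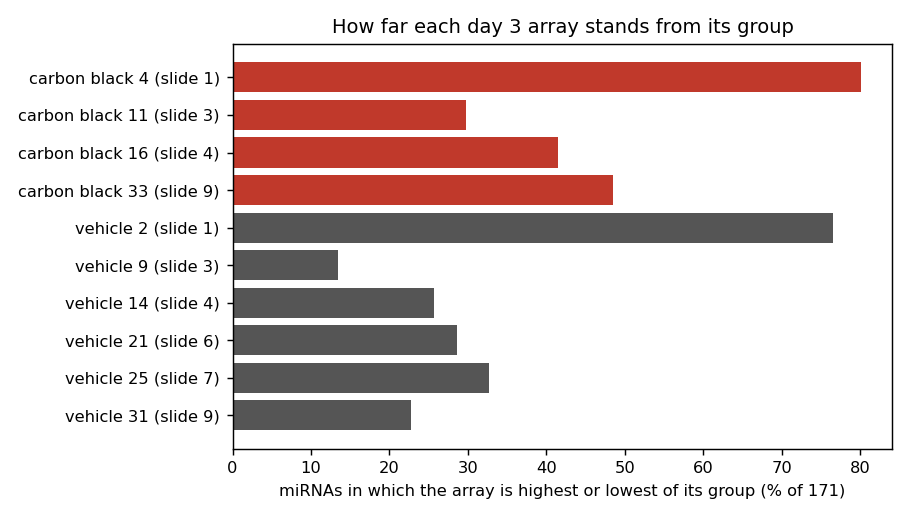
Share of the 171 tested miRNAs in which each day 3 array was the highest or lowest of its own group, in percent, with 1 bar per array (red, carbon black; grey, vehicle). The slide 1 arrays reach 80.1% and 76.6%. A group of 4 gives higher shares than a group of 6 by its size alone.

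At day 3 no miRNA differed between the groups past the threshold. A miRNA was tested when it was above background on at least 4 arrays of at least 1 of the study's 6 groups, which held for 171 mouse miRNAs. Limma called 0 of 171 (0%) at an adjusted p of 0.05, and the adjusted p was 0.996 for every miRNA. At an unadjusted p of 0.05 it had 2 higher (1.17%), miR-689 and miR-486, and 0 lower. The carbon black mean was higher for 65 miRNAs (38%) and lower for 106 (62%), and the median log2 change was -0.036. For 143 of 171 miRNAs (83.6%) the change was under 0.25 in size, for 7 it was at least 0.5 and for 4 at least 1. The 4 carbon black values lay wholly above or wholly below the 6 vehicle values for 0 miRNAs in either direction (0%).

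The intervals show what differences the data leave possible. The 95% interval of the log2 change lay within 1 of 0 for 146 of the 171 miRNAs and within 0.5 for 92, and the median SE was 0.19 (0.074 to 1.35). For 14 miRNAs the interval reached beyond a 2-fold higher level, and for 15 beyond a 2-fold lower one. Among the 115 miRNAs above background on all 10 arrays, changes ran from -1.39 to 0.72, and the interval stayed within 1 of 0 for 108.

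Without the 4 arrays of slide 1, limma called 1 of 171 (0.585%), miR-689, and 9 were higher (5.26%) and 0 lower at an unadjusted p of 0.05. miR-689 was then below background on every day 3 vehicle array. The 9 were miR-144, miR-451, miR-486, miR-21, miR-93, miR-328, miR-455, miR-720 and miR-689. The median log2 change was then 0.028.

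**Figure D2:**
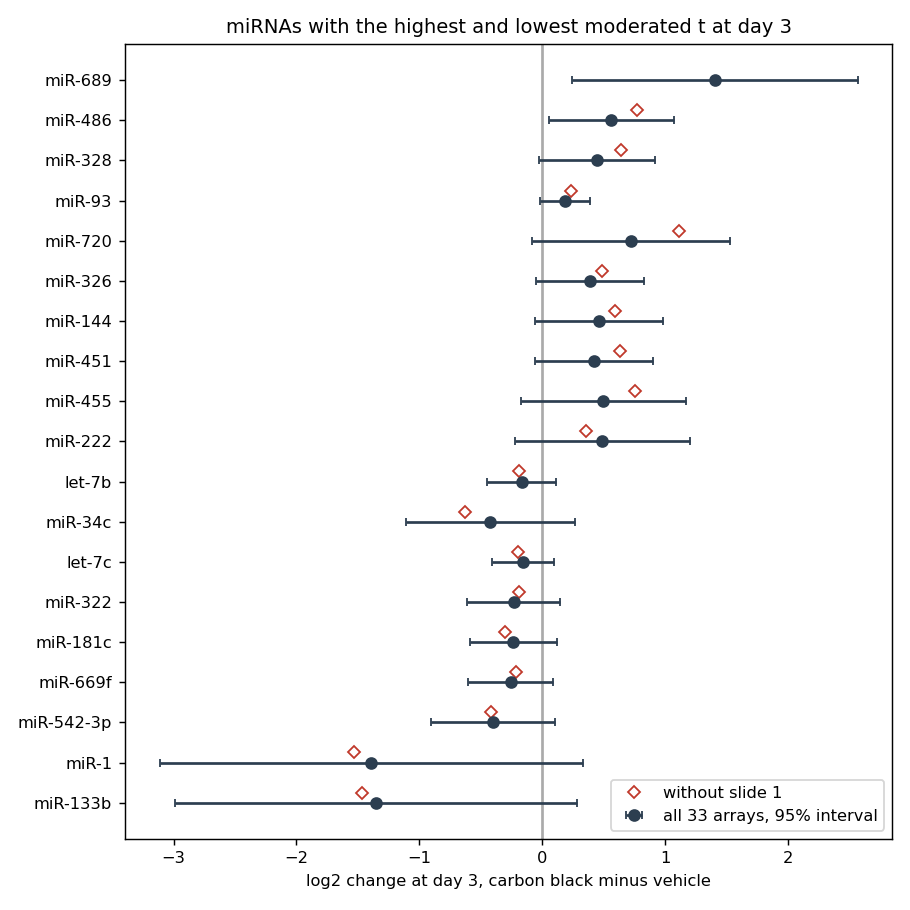
Log2 change at day 3, carbon black minus vehicle, for the miRNAs with the highest and lowest moderated t, with 95% intervals from limma (filled points) and the change without slide 1 (open diamonds; none for miR-689, whose vehicle arrays outside slide 1 were all below background). The intervals of miR-689 and miR-486 lie above 0, and no other interval excludes 0. miR-133a is left out because no carbon black array measured it above background.

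The 4 carbon black arrays each shared a slide with a vehicle array of day 3, which gives 4 same-slide pairs. Of the 171 miRNAs, 5 (2.92%) were higher in 4 of 4 pairs, and these were miR-144, miR-93, miR-222, miR-24-2* and miR-99b. A further 21 (12.3%) were lower in 4 of 4 pairs. The 3 pairs outside slide 1 were all higher for 30 miRNAs, and for 25 of these (14.6% of those tested) the slide 1 pair was lower. They were all lower for 26 miRNAs, and for 21 of these slide 1 was lower too. The median difference over all tested miRNAs was -0.22 on slide 1, -0.042 on slide 3, -0.023 on slide 4 and 0.13 on slide 9. On slide 1 the carbon black array was lower for 137 of 171 miRNAs, and on slide 9 it was higher for 121.

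**Figure D3:**
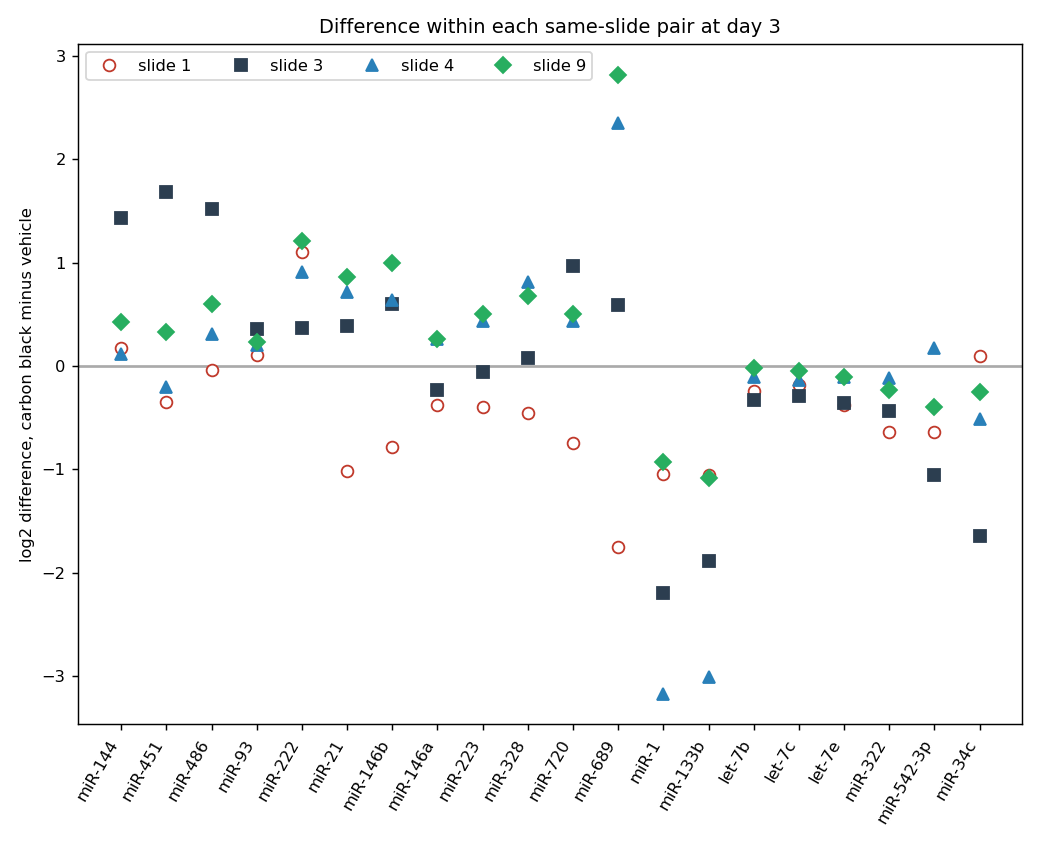
Log2 difference within each of the 4 same-slide pairs of day 3 for 20 named miRNAs, with 1 point per pair. miR-21 and miR-146b are above 0 on slides 3, 4 and 9 and below 0 on slide 1, and miR-1, miR-133b and the let-7 members are below 0 in all 4 pairs.

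The 3 erythroid miRNAs all had higher means after carbon black, though none passed the test. miR-144 and miR-451 are made from 1 cluster that is switched on in maturing red cells, and miR-486 is also abundant in red cells. The list's 3 members were above background on all 10 arrays, with a median change of 0.46 against -0.036 over all miRNAs tested. Limma called 0 of the 3.

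miR-144 read 8.06, 9.04, 8.63 and 8.77 in carbon black replicates 4, 11, 16 and 33, and 7.61, 8.20 and 8.57 (lowest, median and highest) in vehicle lungs. Replicates 11, 16 and 33 lay above every vehicle lung and replicate 4, from slide 1, lay among them, so the groups overlapped. The means were 8.63 ± 0.41 (SD, n = 4) and 8.16 ± 0.38 (SD, n = 6), a log2 change of 0.46 ± 0.26 (SE; limma adjusted p = 0.996) or 37.8% higher. miR-451, among the brightest miRNAs of the lung, read 12.46, 13.61, 12.60 and 13.01 in the same order against 11.93, 12.57 and 12.81. Only replicates 11 and 33 exceeded the vehicle range, and the change was 0.42 ± 0.24 (SE; limma adjusted p = 0.996). miR-486 read 4.97, 6.06, 5.50 and 5.96 against 4.55, 5.12 and 5.36. Here replicates 11, 16 and 33 exceeded every vehicle lung and replicate 4 lay below the vehicle median, for a change of 0.56 ± 0.25 (SE; limma unadjusted p = 0.0314, adjusted p = 0.996).

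The slide 3 pair gave the largest differences of the erythroid miRNAs, 1.43 for miR-144, 1.68 for miR-451 and 1.51 for miR-486. In that pair the carbon black array had the highest value of all 10 and the vehicle array the lowest for each of them. Without carbon black replicate 11 the changes were 0.32, 0.19 and 0.42. Without slide 1 they were 0.60, 0.64 and 0.77, at limma unadjusted p of 0.0471, 0.0214 and 0.00953 and adjusted p of 0.790, 0.609 and 0.609. The change of miR-451 was 0.095 with quantile normalization, and that of miR-486 0.21 with normexp and 0.19 with the series table. The summed signal of the 3 members ran from 5932 to 13119 scaled units in carbon black lungs and from 4133 to 7544 in vehicle lungs, and the 2 ranges overlapped. Whole-lung RNA does not separate more cells of a type from more RNA per cell, here or for any marker below. Blood left in the lungs was not measured.

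The heart and skeletal muscle miRNAs had the lowest median change of the lists examined. miR-1, which promotes muscle differentiation, and miR-133a and miR-133b, made from the same group of clusters, are nearly confined to muscle. Of the list's 7 members 3 were tested, all 3 with lower means, at a median of -1.35, and -1.47 without slide 1. Among them miR-133a was below background on every carbon black array. The median was -0.34 with normexp background correction and -0.29 with the authors' series table. The list's other members, miR-206, miR-208a, miR-208b and miR-499, were above background on none of the 10 arrays.

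miR-1 read 5.82, 4.19, 5.17 and 5.99 in carbon black replicates 4, 11, 16 and 33, against 5.59, 6.62 and 8.34 in vehicle lungs. The values of replicates 11 and 16 lay below every vehicle lung. The means were 5.29 ± 0.82 (SD, n = 4) and 6.68 ± 0.96 (SD, n = 6), a log2 change of -1.39 ± 0.84 (SE; limma adjusted p = 0.996), with a 95% interval from -3.11 to 0.33. Without slide 1 it was -1.53, with normexp -0.75 and with the series table -0.58. miR-133b read 3.80, 2.52, 3.29 and 3.82 against 3.76, 4.63 and 6.30, was above background on 2 of 4 and 5 of 6 arrays, and had a change of -1.35 ± 0.80 (SE; limma adjusted p = 0.996). This was -1.47 without slide 1, -0.34 with normexp, -0.29 with the series table and -2.58 with the total gene signal. miR-133a was above background on 2 of 6 vehicle and 0 of 4 carbon black arrays, which allowed no fold. Setting it at no change left the list's median at -1.35.

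Both miR-1 and miR-133b were lower in 4 of 4 pairs, as were 12.3% of the 171 miRNAs tested. The differences of miR-1 were -1.04, -2.20, -3.17 and -0.93 on slides 1, 3, 4 and 9. miR-133a was also lower in each pair, but its carbon black values were all below background. Vehicle replicate 14, the array of slide 4, had the highest value of all 10 arrays for both miR-1 and miR-133b. Without it the changes were -1.06 and -1.03. In a fit of the 4 pairs alone, with slide as a block, the change of miR-1 was -1.84 (limma unadjusted p = 0.00452, adjusted p = 0.387) and that of miR-133b -1.76 (unadjusted p = 0.00335, adjusted p = 0.387). The sum of the 3 muscle signals ran from 26.9 to 85.5 units in carbon black and from 67.6 to 444 in vehicle lungs. How much heart or other muscle tissue came with each lung sample was not measured.

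**Figure D4:**
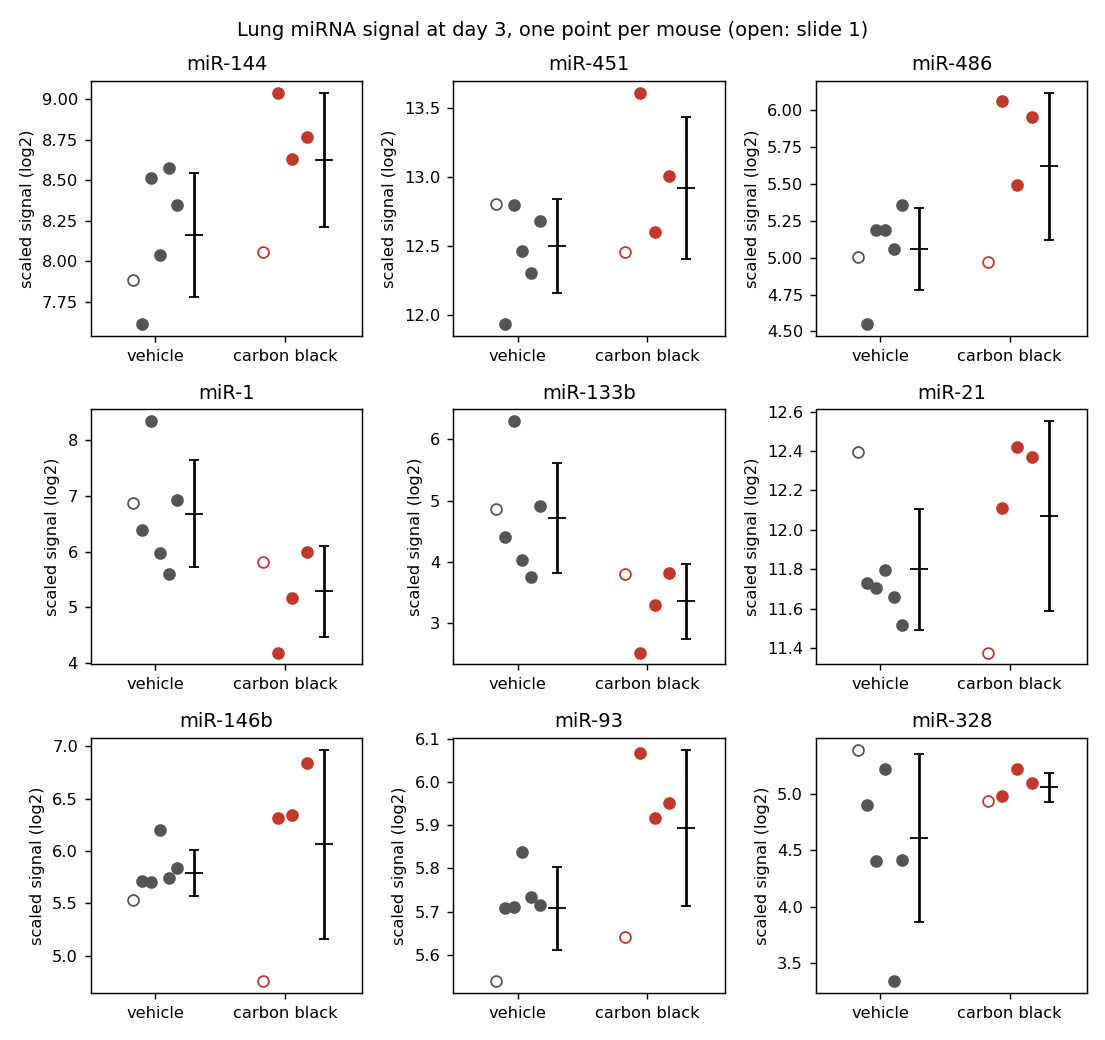
Scaled log2 signal of 9 miRNAs on each day 3 array, vehicle in grey and carbon black in red, with open circles for slide 1 and bars for the mean ± SD (n = 6 and 4). Each panel has its own vertical scale. In miR-21 and miR-146b the carbon black array of slide 1 is the lowest of all 10, while the other 3 carbon black arrays are above the vehicle arrays outside slide 1.

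Among miRNAs known to be induced in inflammation, miR-21 and miR-146b were lower on slide 1 and higher on slides 3, 4 and 9. Of 11 on the list 6 were tested and 0 called, 4 with higher and 2 with lower means, at a median of 0.18, and 0.23 without slide 1. With miR-155, which carbon black arrays did not measure above background, set at no change the median was also 0.18. miR-21, which is raised in injured tissue, read 11.38, 12.11, 12.42 and 12.37 in carbon black replicates 4, 11, 16 and 33. Vehicle lungs ran from 11.52 through a median of 11.72 to 12.40. Outside slide 1 every carbon black value was above every vehicle value, the highest of which was 11.80. How many of the 171 tested miRNAs separated this way outside slide 1 was not counted, so how unusual the separation is cannot be told. Over all 10 arrays, a different set, 0 separated. On slide 1 the order was turned, with the vehicle lung at 12.40 and the carbon black lung at 11.38. The slide 1 pair was lower for 25 of the 30 miRNAs that were higher in the other 3 pairs. It was also lower for 21 of the 26 that were lower in the other 3 pairs, and for 137 of all 171. A lower value on slide 1 was thus not particular to miRNAs that were higher elsewhere.

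The change of miR-21 was 0.27 ± 0.25 (SE; limma adjusted p = 0.996) over all arrays and 0.62 without slide 1 (unadjusted p = 0.0152, adjusted p = 0.609). Its pair differences were -1.02 on slide 1 and 0.38, 0.71 and 0.86 on slides 3, 4 and 9. miR-146b, which with miR-146a dampens NF-kB signalling through Irak1 and Traf6, read 4.76, 6.32, 6.35 and 6.84 against 5.54, 5.73 and 6.20. For miR-146b replicates 11, 16 and 33 exceeded every vehicle lung, and replicate 4 lay below every one. The change was 0.27 ± 0.36 (SE; limma adjusted p = 0.996), 0.66 without slide 1 and 0.098 with the series table (without slide 1: unadjusted p = 0.0776, adjusted p = 0.790). miR-146a, which has the same seed, read 7.78, 8.18, 8.46 and 8.53 against 8.16, 8.32 and 8.46, with a change of -0.075 ± 0.20 (SE).

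miR-222 restrains the cell cycle inhibitor Cdkn1b together with miR-221, its neighbour on chromosome X. It read 3.61, 3.05, 3.61 and 3.81 after carbon black and 2.51, 2.69 and 4.79 in vehicle lungs. Its carbon black values exceeded 5 of the 6 vehicle values, and vehicle replicate 25 exceeded all of them. The change was 0.49 ± 0.35 (SE; limma adjusted p = 0.996), 0.84 without vehicle replicate 25 and 0.36 without slide 1. It was 0.099 with normexp, 0.052 with the series table, 0.019 with a floor of 10 and 1.00 with the total gene signal. It was above background on only 2 of 4 carbon black and 2 of 6 vehicle arrays. miR-155, which drives macrophage and lymphocyte activation, was above background on 0 of 4 and 1 of 6 arrays, and no fold can be given.

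Markers of the myeloid cells that enter an inflamed lung had no called member. miR-223, abundant in neutrophils, read 8.47, 8.42, 8.51 and 8.24 after carbon black and 7.74, 8.16 and 8.87 in vehicle lungs. All 4 values lay above the vehicle median and inside the vehicle range. The change was 0.20 ± 0.24 (SE; limma adjusted p = 0.996), with an interval from -0.28 to 0.69, and was 0.31 without slide 1. miR-142-3p and miR-142-5p, the arms of a precursor found in all blood lineages, had changes of 0.016 ± 0.34 and -0.19 ± 0.24 (SE). The list's median of 0.016 is that of miR-142-3p, whose sign turned under 4 of 6 other scalings or sources of values. The 3 tested lymphoid members had lower means, at a median of -0.089 that was 0.034 without carbon black replicate 4, and miR-150, the lymphocyte miRNA on that list, was above background on 0 of 10 arrays.

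Among structural cell types no marker passed the test either. miR-126-3p, the endothelial miRNA of the Egfl7 gene, had means of 12.67 ± 0.076 (SD, n = 4) and 12.67 ± 0.18 (SD, n = 6) and a change of 0.0027 ± 0.11 (SE) that was below 0 with quantile normalization, the percentile over all probes or no scaling. Its other arm, miR-126-5p, ranged from 1.36 to 4.84 in carbon black lungs and from 1.15 to 4.58 in vehicle lungs. Both of its lowest values were on slide 1. The 8 tested epithelial miRNAs, which include the miR-200 family, had 3 higher and 5 lower means and a median of -0.077. It was -0.039 with miR-203, which no carbon black array measured above background, set at no change, and 0.027 without carbon black replicate 4.

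The ciliated cell miRNAs did not move as one group. miR-34b-5p and miR-34c come from 1 transcript and act with miR-449a in the formation of motile cilia. miR-34b-5p read 8.97, 7.13, 8.53 and 7.70 after carbon black and 7.57, 8.53 and 9.08 in vehicle lungs, and replicate 11 alone lay below the vehicle range. Its change was -0.33 ± 0.35 and that of miR-34c -0.42 ± 0.34 (SE; limma adjusted p = 0.996), and without replicate 11 they were -0.014 and -0.094. Without replicate 4 they were -0.63 and -0.68, and without slide 1 -0.57 and -0.63. miR-449a, with the same seed as miR-34b-5p, read 6.28, 6.32, 8.27 and 6.53 against 5.56, 6.31 and 7.01. Replicate 16 alone lay above the vehicle range, and the change was 0.55 ± 0.50 (SE), or 0.076 without that array and 0.77 without slide 1.

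Carbon black replicate 11 therefore had the highest erythroid and the lowest muscle and miR-34b/c values of its group. It also read 6.51 for miR-122, a miRNA made almost only in liver, against 4.74, 1.52 and 3.12 in replicates 4, 16 and 33. In vehicle lungs miR-122 ran from the floor of 0 on 2 arrays, replicates 9 and 21, through a median of 4.65 to 7.16. Its change was 0.38 ± 1.35 (SE; limma adjusted p = 0.996), the largest error of all 171 miRNAs.

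The let-7 family, whose members hold back growth genes such as Lin28a, Hmga2 and Ras, had lower means throughout. All 9 members were above background on all 10 arrays and had lower means after carbon black, from -0.18 to -0.013 with a median of -0.11. In 4 of 4 pairs 5 of 9 were lower. Over all 171 miRNAs tested, 62% had lower means and 12.3% were lower in 4 of 4 pairs. Limma called 0 of the 9. let-7b read 11.50, 11.11, 11.03 and 11.16 against 11.14, 11.35 and 11.75, and only replicates 11 and 16 lay below the vehicle range. let-7c had a change of -0.16 ± 0.12 and let-7e one of -0.18 ± 0.20 (SE; limma adjusted p = 0.996). The 4 pair differences of let-7e were -0.38, -0.36, -0.10 and -0.10 on slides 1, 3, 4 and 9. The family's median was -0.15 without slide 1 and -0.0062 without vehicle replicate 2 alone, the array of slide 1 that held the highest let-7b, let-7c and let-7e values. Members differ at few bases outside the seed, so probes may share signal, which was not measured here.

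The miR-15/16 family (seed AGCAGCA), which restrains cyclins and Bcl2, had 5 lower and 1 higher mean among 6 members and a median of -0.10. In 4 of 4 pairs 4 of 6 were lower, against 12.3% of all miRNAs tested. Without vehicle replicate 2 the median was -0.026, and without slide 1 it was -0.077. Its member miR-322 read 8.35, 7.90, 8.12 and 7.87 against 7.85, 8.25 and 8.99, a change of -0.23 ± 0.18 (SE; limma adjusted p = 0.996) with the groups overlapping. miR-322 belongs to a cluster on chromosome X that is active in myogenic and growing cells. Of the cluster's other tested members, miR-542-3p had a change of -0.40 ± 0.25, miR-542-5p -0.31 ± 0.26 and miR-450a-5p 0.086 ± 0.22 (SE). The first read 4.64, 3.79, 4.49 and 3.86 against 4.25, 4.44 and 5.28, with replicates 11 and 33 below the vehicle range.

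miR-93 belongs to the paralogs of the miR-17-92 cluster, which promote proliferation. It read 5.64, 6.07, 5.92 and 5.95 after carbon black and 5.54, 5.71 and 5.84 in vehicle lungs. Replicates 11, 16 and 33 exceeded every vehicle lung, and replicate 4 exceeded only vehicle replicate 2, its slide partner. The change was 0.19 ± 0.098 (SE; limma unadjusted p = 0.0669, adjusted p = 0.996), and the pair differences were 0.10, 0.36, 0.21 and 0.24. Of the 9 tested members of the group 7 had higher means, at a median of 0.095, and miR-18a, also of that group, was above background on 2 of 4 and 1 of 6 arrays. The 3 members of the miR-29 family, which targets collagen mRNAs, had higher means with a median of 0.13, with miR-29c at 0.18 ± 0.14 (SE). The 5 miR-30 members had lower means, at a median of -0.065 that was 0.15 without carbon black replicate 4.

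For several miRNAs at the upper end the change was much smaller without 1 vehicle array, replicate 25. miR-328 read 4.93, 4.98, 5.22 and 5.09 after carbon black and 3.34, 4.66 and 5.39 in vehicle lungs, a change of 0.44 ± 0.23 (SE; limma unadjusted p = 0.0634, adjusted p = 0.996). It was 0.14 with normexp and 0.043 with the series table. The carbon black lungs lay close together inside the vehicle range, and the lowest vehicle value was that of replicate 25. Without this array the change was 0.19 for miR-328, 0.13 for miR-326 (0.39 with it) and 0.12 for miR-455 (0.50 with it). Outside slide 1, miR-328 and miR-455 were each above background on 4 of 5 vehicle arrays. The vehicle mean of each thus includes a value below background.

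miR-720 and miR-689 are doubtful as miRNAs, the first being a fragment of a transfer RNA. miR-720 read 11.21, 12.02, 12.35 and 12.07 against 8.70, 11.74 and 11.96, with vehicle replicate 25 again the lowest. Its change was 0.72 ± 0.39 (SE; limma adjusted p = 0.996), and 0.23 without that array. miR-689 read 3.44, 4.08, 4.08 and 4.15 against 1.04, 2.07 and 5.19, and was above background on 3 of 4 carbon black and 1 of 6 vehicle arrays. The carbon black lungs lay above 4 of the 6 vehicle lungs, and the vehicle lung of slide 1 was the highest of all 10. Its change was 1.40 ± 0.57 (SE; limma unadjusted p = 0.0198, adjusted p = 0.996), set against vehicle lungs that mostly gave no signal above background. It was 0.22 with normexp, 0.12 with the series table, 0.27 with a floor of 10 and 2.13 with the total gene signal. Without slide 1, 2 of 3 carbon black and 0 of 5 vehicle arrays were above background, and a bound of 1.84-fold higher was calculated. Its carbon black mean includes a value below background, so it is not a firm lower limit. The limma adjusted p of 0.0236 belongs to the fitted change, which rests on vehicle values below background. It does not test this bound. The bound sets the carbon black mean against, on each vehicle array, the lowest signal above background or the miRNA's own where higher. Its pair on slide 1 differed by -1.75, so that leaving out this slide raises the change by construction.

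Other miRNAs at the lower end were miR-181c at -0.24 ± 0.17, miR-669f at -0.26 ± 0.17 and miR-224 at -0.32 ± 0.28 (SE; limma adjusted p = 0.996). miR-224 was lower in 4 of 4 pairs, and was above background on 1 of 4 and 4 of 6 arrays. miR-24-2* and miR-99b, higher in 4 of 4 pairs, had group changes of 0.18 ± 0.44 and -0.065 ± 0.27 (SE). For miR-99b the pairs and the groups thus differed in sign, since the 2 vehicle arrays with no carbon black partner read 5.03 and 4.95, above the other 4.

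The share of arrays above background favoured the carbon black group most for miR-689, miR-702 (3 of 4 against 2 of 6), miR-17* (3 of 4 against 3 of 6), miR-320 (3 of 4 against 3 of 6) and miR-18a. Their log2 changes other than that of miR-689 were 0.40, 0.11, -0.061 and 0.15. It favoured the vehicle group most for let-7b* (1 of 4 against 5 of 6), miR-542-5p (2 of 4 against 6 of 6), miR-362-3p (2 of 4 against 6 of 6), miR-30b* (1 of 4 against 4 of 6), and miR-224 and miR-375 with the same counts as miR-30b*. The changes of let-7b*, miR-362-3p and miR-30b* were -0.046, -0.20 and 0.0030. Of the 115 star strands on the array, the less used arms of their precursors, 18 were tested, 10 with higher and 8 with lower means. The 39 miRNAs listed for the Dlk1-Dio3 cluster, which is active in the fetus, were above background on 0 of 10 arrays.

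The change at day 3 was then set against those at day 1 (6 carbon black and 6 vehicle lungs) and day 28 (5 and 6). The 3 days have separate vehicle groups. Limma called 0 of 171 (0%) for the difference between day 3 and day 1. At an unadjusted p of 0.05 there were 3 higher at day 3 (1.75%), miR-328, miR-455 and let-7d*, and 1 lower (0.585%), miR-155. For day 3 against day 28 it also called 0 (0%), with 1 higher (0.585%), miR-93, and 2 lower (1.17%), miR-146a and miR-155.

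The differences from day 1 were 0.78 ± 0.31 for miR-328, 1.04 ± 0.44 for miR-455 and 0.69 ± 0.31 for let-7d* (SE; limma adjusted p = 0.991). miR-155 had a fitted difference of -1.12 ± 0.44 (SE; limma unadjusted p = 0.0168, adjusted p = 0.991) and rests at day 3 on arrays below background. Its difference passed the threshold with the total gene signal of the scanner software (limma adjusted p = 0.0361). miR-223 had a change of 0.82 ± 0.21 (SE) at day 1, 0.20 at day 3 and 0.12 at day 28, and the difference between days 3 and 1 was -0.62 ± 0.32 (limma unadjusted p = 0.0631, adjusted p = 0.991).

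miR-21 had changes of 0.41, 0.27 and 0.85 at days 1, 3 and 28, and day 3 differed from day 28 by -0.58 ± 0.34 (SE; limma adjusted p = 0.999). miR-146b had 0.33, 0.27 and 1.14, and its difference from day 28 was -0.87 ± 0.49. miR-146a, at -0.075 on day 3 and 0.48 on day 28, differed by -0.56 ± 0.27 (limma unadjusted p = 0.0457, adjusted p = 0.999). miR-93 differed by 0.28 ± 0.14 (SE; limma unadjusted p = 0.0450, adjusted p = 0.999). The erythroid miR-144 had changes of 0.17, 0.46 and -0.24 at the 3 days, and day 3 exceeded day 28 by 0.71 ± 0.35 (limma unadjusted p = 0.0534, adjusted p = 0.999). miR-1 had 0.84, -1.39 and -1.55, and day 3 differed from day 1 by -2.23 ± 1.13 (limma unadjusted p = 0.0586, adjusted p = 0.991). None of these differences between days passed the threshold, which does not show that the days were alike.

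**Figure D5:**
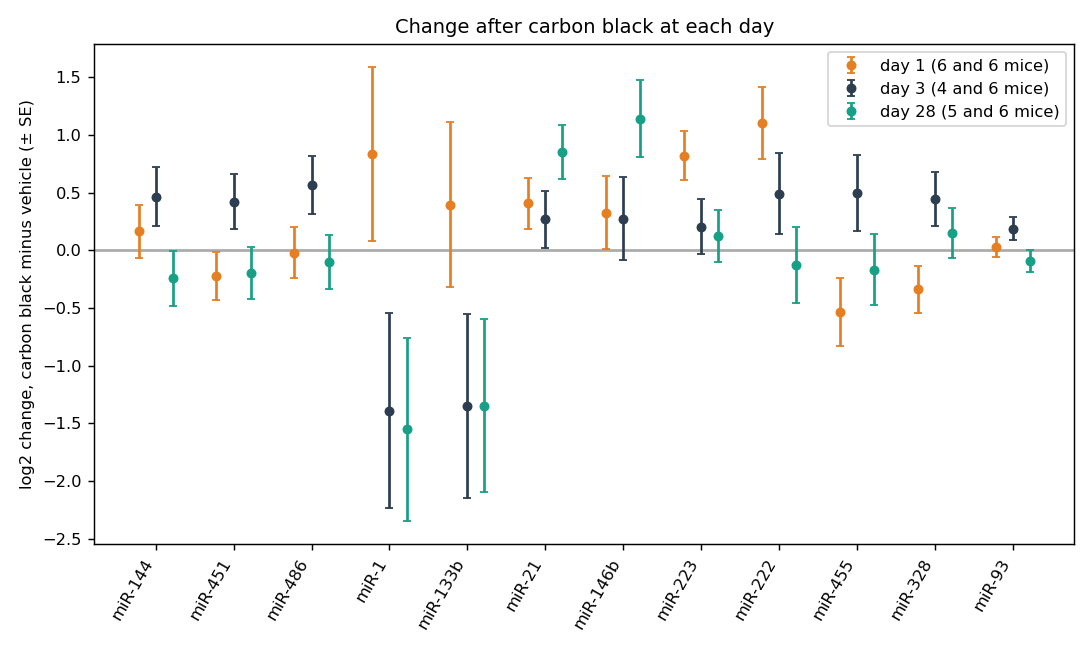
Log2 change after carbon black at days 1, 3 and 28 for 12 miRNAs, with points for the limma estimate and bars for ± 1 SE. The erythroid miRNAs have their highest estimate at day 3, miR-1 and miR-133b are below 0 at days 3 and 28, and miR-21 and miR-146b have their highest estimate at day 28.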

How the data were processed

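Lung RNA from 33 mice was hybridised to 1-colour (Cy3) Agilent mouse miRNA arrays, 1 array per mouse. Per the file headers, the authors' scanner files hold spot intensity from Agilent Feature Extraction 10.7.3.1, in which the processed signal is background-subtracted, together with other per-spot flags (0 or 1). The log2 values of the deposited series table have no stated scaling and were used only as an alternative, with their centring unknown. Treatment and day came from the labels. P-values measure the spread between these samples.

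Each array had 13715 spots, 13000 of them non-control, for 1857 probes, and 0 were saturated. Control spots and flagged outliers (2.30% of spots) were left out. Processed signals were averaged per probe and scaled to a common 75th percentile, taken from the 156 probes that every one of the 33 arrays detected. Values under 1 were raised to 1 before log2. Each miRNA stands as its brightest probe, and arrays carry no read depth, so their number limits the precision. All 33 arrays entered 1 limma 3.58.1 model of 6 group means (R 4.3.3; eBayes with an intensity trend), with two-sided tests and Benjamini-Hochberg adjustment over the 171 miRNAs. The model was also run on simulated data with independent noise and no slide effect, so that run does not cover the slide differences seen here. Group summaries at the level of the array used exact permutation tests.

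The 25 alternatives covered background correction, scaling, source of values, filters, floor, slide and leaving out each day 3 array. The mean signal column was absent, so normexp (offset 50) used the median signal. miRNAs named are the 10 highest and 10 lowest by moderated t, those with 1 sign in 4 pairs or the greatest difference in detection, the 4 with the smallest p for each difference between days, and list members as examples. The miR-122 values were singled out after they were seen. The members, lists and alternatives were chosen with earlier results of these data known. Of 69 names looked up, 63 matched a RefSeq (GRCm38.p6) sequence.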

Additional observations from a re-analysis of the deposited data

Results flagged for a closer look

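In 100 groups of values checked (each named miRNA in each day 3 group, brightness and detection), 14 had an array far from the others of its group. The rule flags about 1 in 20 groups of unselected, normally distributed values. The miRNAs here were selected and share the same arrays, so the 14 cannot be read against that rate. Of the 14, 6 were vehicle replicate 2, of slide 1. It was highest for miR-21 (12.40, others up to 11.80), miR-542-5p (5.24, others up to 4.25), miR-224 (4.32, others up to 3.52) and miR-18a (3.99, others up to 3.22). It was lowest for miR-142-3p (8.69, others from 9.76) and miR-99b (3.66, others from 4.54). Carbon black replicate 4, its slide partner, was highest for let-7e (9.36, others up to 8.82) and lowest for miR-689 (3.44, others from 4.08).

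Vehicle replicate 25 was highest for miR-222 (4.79, others up to 2.88) and lowest for miR-720 (8.70, others from 11.06). Carbon black replicate 16 was highest for miR-449a (8.27, others up to 6.53) and lowest for miR-29c (8.77, others from 9.02). Carbon black replicate 11 was lowest for miR-326 (5.14, others from 5.31). Vehicle replicate 14 had the most mouse miRNAs above background, 179, where the others had up to 150.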

How the results depend on the processing

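Under the 25 alternatives limma called 0 miRNAs at day 3 in all but 1: without slide 1 it called 1, miR-689. The differences between days were fitted under 23 of these. For day 3 against day 1 limma called 1, miR-155, with the total gene signal and 0 otherwise, and for day 3 against day 28 it called 0 under each of the 23. The number higher or lower at an unadjusted p of 0.05 was 3 and 3 under either slide block, fixed or random, and 3 and 6 in the same-slide pairs only. It was 7 and 0 without vehicle replicate 2, 7 and 2 without carbon black replicate 4, and 6 and 0 without vehicle replicate 21. The main model has no slide term, and the fitted correlation within slides was 0.359. The smallest limma adjusted p at day 3 was 0.444 with slide as a fixed block, 0.783 as a random block and 0.387 in the pairs. It was 0.0662 without vehicle replicate 2, 0.0236 without slide 1 and 0.796 without carbon black replicate 4. In the main model it was 0.996, and in every other alternative at least 0.980. Each replicate number in the labels names 1 array of the whole series and pairs none, so pairing rested on the slide alone, as a block or in the same-slide pairs. Leaving out each day 3 array moved the brightness difference between -0.28 and 0.097 and the detection difference between -10.3 and 2.0, both turning sign without carbon black replicate 16 or vehicle replicate 14, and brightness also without vehicle replicate 31 (0.039).

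Of 48 named miRNAs, these log2 changes turned sign, and the cause was not tested. With normexp they were -0.011 for miR-142-3p, 0.018 for miR-155, 0.040 for miR-224, 0.024 for miR-320, 0.023 for miR-362-3p and 0.060 for let-7b*. With the total gene signal they were -0.23 for miR-30b*, -0.56 for miR-18a, 0.27 for let-7b* and -0.11 for miR-122. With quantile normalization they were -0.046 for miR-142-3p, -0.13 for miR-126-3p, -0.032 for miR-30b* and 0.039 for let-7b*. With the percentile over all probes they were -0.025 for miR-142-3p, -0.039 for miR-126-3p and -0.038 for miR-30b*, and with no scaling -0.057, -0.070 and -0.070. The series table gave 0.065 for miR-146a, -0.018 for miR-30b*, 0.030 for miR-320, 0.057 for let-7b* and -0.028 for miR-122. A floor of 10 gave -0.013 for miR-30b*, 0.22 for let-7b* and -0.23 for miR-122, and the mean over probes -0.015 for miR-126-3p. With slide as a fixed block the values were 0.0090 for miR-146a, -0.045 for miR-126-3p, 0.082 for miR-99b, 0.069 for miR-320, 0.063 for let-7b* and -0.12 for miR-122. With slide as a random block they were -0.027 for miR-126-3p, 0.027 for miR-99b, 0.022 for miR-320 and 0.023 for let-7b*. The same-slide pairs gave 0.0050 for miR-142-5p, -0.053 for miR-126-3p, 0.12 for miR-99b, 0.11 for miR-320, 0.028 for let-7b* and -0.18 for miR-122. Without slide 1 they were 0.046 for miR-146a, -0.0066 for miR-30b* and 0.25 for let-7b*.

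Among list medians, that of the miR-30 family turned to 0.047 with slide as a fixed block and 0.12 in the same-slide pairs, and the lymphoid median to 0.0014 and 0.031. Leaving out 1 array at a time gave ranges across 0 of -0.17 to 0.076 for miR-146a, -0.20 to 0.24 for miR-142-3p, -0.026 to 0.47 for miR-709, -0.044 to 0.21 for miR-450a-5p, -0.055 to 0.048 for miR-126-3p and -0.15 to 0.62 for miR-24-2*. They were -0.26 to 0.18 for miR-99b, -0.091 to 0.12 for miR-30b*, -0.0031 to 0.28 for miR-17*, -0.24 to 0.062 for miR-320, -0.31 to 0.21 for let-7b* and -0.47 to 1.19 for miR-122. With 4 carbon black lungs and some miRNAs near background, changes may have been missed, and the smallest change that could be detected was not calculated.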
